A study of Homo sapiens with 4 samples.

Results

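The ERBB signalling genes described here are 10 of the 58051 genes in the count files, chosen by name. They are the receptors EGFR, ERBB2 and ERBB3, the ligands NRG1, AREG, EREG, TGFA, HBEGF and BTC, and the feedback inhibitor ERRFI1. All 10 were matched to an Ensembl gene and all 10 were among the 18046 genes that passed the filter on low counts. The RNA came from A549, an established line of human lung carcinoma cells, into which piggyBac transposase had inserted A-FOS under doxycycline control, and was sequenced after polyA selection. The genotype was shared by every library, so the control cells carry the inducible gene as well. The design text describes the insertion as random, whereas in the titles of the samples the cells are named a knock-in. The labels do not say whether the line is a clone. There were 2 untreated libraries (minus Dox) and 2 libraries from cells given doxycycline at 1 µg/mL (plus Dox), for a time that the labels do not state. Nothing in the labels says that libraries within a group are from separate cultures, so p-values measure only the spread between these libraries, which may be technical. No library of cells that lack A-FOS but received doxycycline was analysed here, so the drug and A-FOS cannot be told apart.

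Receptors of this family are tyrosine kinases that pair when a ligand binds, and the pair then signals through RAS, ERK, PI3K and AKT. AREG, EREG, TGFA, HBEGF and BTC bind EGFR, some of them ERBB4 too, while NRG1 binds ERBB3 and ERBB4. ERBB2 has no known ligand of its own and acts as the favoured partner of the others. The ligands are made as membrane-bound precursors that ADAM proteases cut free, and airway epithelium uses them in growth and wound repair. A-FOS is a dominant-negative FOS protein that traps JUN in dimers unable to bind DNA, and so blocks AP-1, a transcription factor family that acts in growth signalling.

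Total counts ranged from 31104964 to 40526912 per library. FOS, whose reads may include those of the inserted gene, went from 1.36 and 1.52 CPM in minus Dox to 48.6 and 51.0 CPM in plus Dox (CPM, counts scaled to the TMM-adjusted library size). Markers of lung epithelium summed to between 12740 and 13090 CPM in minus Dox and to between 6381 and 6576 CPM in plus Dox, with 7 of 10 above 1 CPM in each library. Of 7 tested markers, 6 fell, KRT7, KRT8, KRT18 and KRT19 among them, where 28.4% of all tested genes were called lower. After removal of a trend on GC content, length and abundance, 4 fell and 2 rose, KRT8 at 0.26 and KRT18 at 0.35 on the log2 scale. In that setting 5302 of 17974 genes were called higher and 4489 lower. The lung lineage factor NKX2-1 was listed at 0 in both minus Dox libraries and had 6 and 2 counts in plus Dox. The surfactant genes SFTPB and SFTPC had at most 6 counts in any library. Markers of other cell types summed to between 38.2 and 47.5 CPM in every library, most of it from the collagen COL1A1. Of 6 tested, 1 rose (VWF), 3 fell (PECAM1, CDH5 and COL1A1) and 2 did not pass, beside 28.4% of all tested genes in each direction. VWF, PECAM1 and CDH5 were scarce, with means of at most 1.005 CPM in either group. The T cell gene CD3E was listed at 0 in all libraries, and the leukocyte gene PTPRC was at 0 in minus Dox with 8 and 4 counts in plus Dox. The part of the change in epithelial markers in the results below was not tested, and with bulk RNA a change in the share of a kind of cell and a change in RNA per cell cannot be told apart.

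With doxycycline, the genes of NRG1, EREG, AREG and EGFR fell and those of HBEGF, BTC, ERBB3 and ERRFI1 rose, while ERBB2 and TGFA did not pass the test. Fold changes are fitted values from edgeR's quasi-likelihood test across all 18046 genes, with Benjamini-Hochberg adjusted p-values and a threshold of 0.05. NRG1 had the lowest log2 fold change of the 10 genes, −2.12 (SE 0.04), and HBEGF the highest, 0.97 (SE 0.11). So 4 members fell, 4 rose and 2 were not past the threshold, against 56.9% of all tested genes called in either direction, 28.4% called higher and 28.4% called lower. With library size only, 72.9% of called genes were higher, against 50.0% here, and 6 members rose and 4 fell. DESeq2 called 2 members higher and 4 lower, beside 3926 genes higher and 4133 lower of 32175 taken without the filter. All 4 members that fell did so by 2-fold or more in the fit, as did 6.01% of tested genes in that direction. With library size only EGFR and AREG stayed called at −0.84 and −0.83 on the log2 scale, short of 2-fold. Both were also short of it with the trend on GC content, length and abundance removed (EGFR −0.67, AREG −0.86). AREG was short of it without plus Dox replicate 1 as well (−0.89). None of the 4 that rose reached 2-fold in the fit, a size that 6.70% of tested genes reached upward. HBEGF lay just short of it and exceeded it with library size only (1.19 on the log2 scale) and with that trend removed (1.07). It also did so without minus Dox replicate 2 and without plus Dox replicate 1 (1.01 in each). In 9 of 10 members the 2 groups of libraries did not overlap, against 77.0% of tested genes. The median log2 fold change of the members was 0.07, beside 0.00 over all tested genes.

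**Figure D1:**
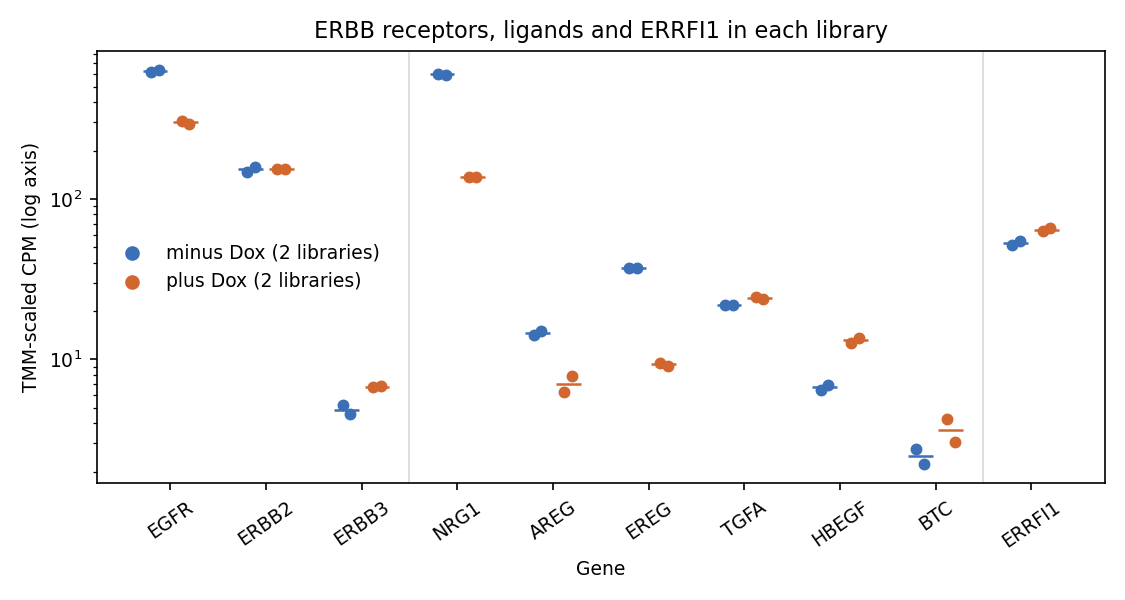
TMM-scaled CPM of the 10 genes on a log axis, with a point for each library and a line at the mean of each group (2 minus Dox libraries in blue, 2 plus Dox libraries in orange). EGFR and NRG1 have means of 626 and 598 CPM without doxycycline and both fall, while HBEGF rises from 6.69 to 13.1 CPM on average and ERBB2 overlaps between groups.

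EGFR, the receptor for most of the ligands listed (ENSG00000146648, chromosome 7, 55019021 to 55211628 in GRCh38), had 621 and 631 CPM in minus Dox and 307 and 293 CPM in plus Dox. Both treated libraries lay below both untreated ones, by far more than the gap within either group. The means were 626 ± 7.08 and 300.2 ± 9.75 CPM (SD, n = 2), and the log2 fold change −1.06 (SE 0.04, edgeR adjusted p = 1.18e-23). With the trend on GC content, length and abundance removed the log2 fold change was −0.67. Over the 4 pairings of an untreated with a treated library the untreated one was 2.02 to 2.15 times higher. EGFR ranked above 98.6% of tested genes in mean CPM, with 9832 to 23660 counts per library. Of the exon bases of EGFR, 1.49% lie opposite those of its antisense gene EGFR-AS1, which had 0.650 CPM in minus Dox and 0.216 CPM in plus Dox on average.

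Promoter letters were read for the AP-1 site TGANTCA, the cyclic AMP response element TGACGTCA and the forkhead site TGTTTAC, on both strands, in the 250 bases before each RefSeq start (GRCh38.p14). The table held 10 such windows for 8 of the 10 genes, with none for ERBB3 or NRG1. Of all 35116 windows, 6.57% held an AP-1 site, 1.65% a cyclic AMP response element and 2.98% a forkhead site. The window at the first EGFR start (chr7:55018767-55019016, plus strand) held no match. A second RefSeq start lies inside the gene, and its window held a pair of AP-1 sites, at 232 to 226 and at 136 to 130 bases before that start. The stretch of this window outside annotated exons (chr7:55109589-55109722, plus strand) is shown because it is the only member window with more than a single match. Capitals mark the AP-1 sites:
EGFR inner start: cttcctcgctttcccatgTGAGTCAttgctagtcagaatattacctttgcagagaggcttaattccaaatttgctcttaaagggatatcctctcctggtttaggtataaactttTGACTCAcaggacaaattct
The counts are per gene and do not separate transcripts from the 2 starts, and a match describes letters only.

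ERBB2, the co-receptor (ENSG00000141736, chromosome 17, 39687914 to 39730426), had 147 and 158 CPM in minus Dox and 153 and 153 CPM in plus Dox. The treated libraries lay between the untreated ones. The log2 fold change was 0.01 (SE 0.04, edgeR adjusted p = 0.932). ERBB2 passed as higher when libraries were scaled by their size only, at 0.22 on the log2 scale (edgeR adjusted p = 2.54e-05), a setting that put the median over tested genes at 0.22 as well. It passed too with the trend on GC content, length and abundance removed, at 0.20 (edgeR adjusted p = 4.82e-06). Of its exon bases 7.41% lie opposite those of MIEN1 and PGAP3, genes with mean levels of 51.6 CPM (MIEN1) and 9.05 CPM (PGAP3) without doxycycline. MIEN1 had a mean of 69.1 CPM with it, and PGAP3 had 8.15 and 7.85 CPM in the treated libraries.

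ERBB3, the neuregulin receptor whose kinase is weak (ENSG00000065361, chromosome 12, 56076799 to 56103505), had 5.18 and 4.56 CPM in minus Dox and 6.73 and 6.80 CPM in plus Dox. It was scarce in every library, with 171 to 237 counts, and the groups did not overlap. The log2 fold change was 0.48 (SE 0.14, edgeR adjusted p = 0.00456). DESeq2 gave a similar size, 0.47, and did not call it (adjusted p = 0.0815). ERBB4, the remaining receptor of the family, is not among the 10 genes and had 3 counts in plus Dox replicate 1 and 0 in the other libraries.

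Per kb of annotated exon, EGFR stood at 3.49 and 3.29 times ERBB2 without doxycycline and at 1.66 and 1.58 times with it. That ratio does not depend on how libraries are scaled, and its groups did not overlap. The sum of the 3 receptor genes went from 64.4 and 66.2 to 40.1 and 39.0 CPM per kb.

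NRG1 (ENSG00000157168, chromosome 8, 31639386 to 32767959), the ligand of ERBB3 and ERBB4, had 603 and 593 CPM in minus Dox and 137 and 138 CPM in plus Dox. Both groups were tight, with an SD of 1.15% of the mean without and 0.381% with doxycycline. The gene fell 4.36-fold (edgeR adjusted p = 3.87e-32), and 1.61% of tested genes had a lower log2 fold change. Over the pairings of libraries the ratio of untreated to treated was 4.31 to 4.40.

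EREG (ENSG00000124882, chromosome 4, 74365143 to 74388751), a ligand of EGFR and ERBB4, had 37.0 and 37.3 CPM in minus Dox and 9.46 and 9.16 CPM in plus Dox. The treated libraries were alike and far below the untreated ones. It fell by 2.00 on the log2 scale (SE 0.08, edgeR adjusted p = 4.69e-21), or 3.99-fold. With the trend on GC content, length and abundance removed the log2 fold change was −2.58.

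AREG (ENSG00000109321, chromosome 4, 74445134 to 74455009), an EGFR ligand of airway epithelium, had 14.2 and 15.1 CPM in minus Dox and 6.28 and 7.88 CPM in plus Dox. The treated libraries differed more from each other, at 7.08 ± 1.13 CPM (SD, n = 2), and still lay below both untreated libraries. It fell by 1.05 on the log2 scale (SE 0.12, edgeR adjusted p = 8.12e-10). The ratio of untreated to treated ran from 1.80 to 2.40 over the pairings of libraries.

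HBEGF (ENSG00000113070, chromosome 5, 140332843 to 140346631), a heparin-binding ligand of EGFR and ERBB4, moved the other way. It had 6.48 and 6.91 CPM in minus Dox and 12.7 and 13.5 CPM in plus Dox. Every treated library was 1.84 to 2.09 times as high as an untreated one. The log2 fold change was 0.97 (SE 0.11, edgeR adjusted p = 3.54e-09), above that of 91.9% of tested genes.

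TGFA (ENSG00000163235, chromosome 2, 70447280 to 70554193), a ligand of EGFR, had 21.98 and 21.87 CPM in minus Dox and 24.3 and 23.7 CPM in plus Dox. The groups did not overlap but lay close together. The log2 fold change of 0.13 (SE 0.08) did not pass (edgeR adjusted p = 0.158). With library size only it passed at 0.35 (edgeR adjusted p = 2.15e-04), beside that median of 0.22.

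BTC (ENSG00000174808, chromosome 4, 74744759 to 74794686), a ligand of EGFR and ERBB4, was the member with the fewest counts, 428 over the 4 libraries. It had 2.75 and 2.24 CPM in minus Dox and 4.23 and 3.04 CPM in plus Dox, so plus Dox replicate 1 stood above the other treated library. Its log2 fold change was 0.55 (SE 0.21, edgeR adjusted p = 0.0212). Without plus Dox replicate 1 it was 0.29 (edgeR adjusted p = 0.381), and without minus Dox replicate 2 it was 0.40 (edgeR adjusted p = 0.138). It also did not pass in DESeq2 (0.54, adjusted p = 0.187) or with the trend on GC content, length and abundance removed (0.29, edgeR adjusted p = 0.225).

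**Figure D2:**
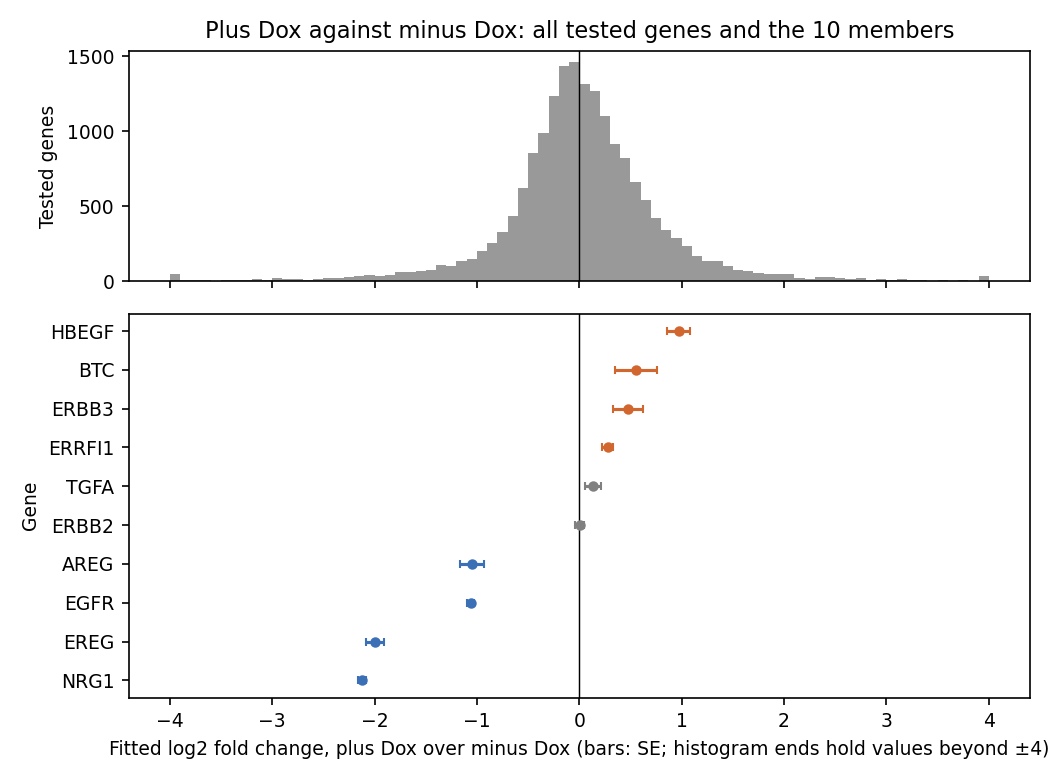
Histogram of the fitted log2 fold change (plus Dox over minus Dox) of all 18046 tested genes above the values of the 10 members with their SE (orange, higher; blue, lower; grey, not past). NRG1 and EREG lie near −2, EGFR and AREG near −1, and HBEGF, at 0.97, is the highest member.

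ERRFI1 (ENSG00000116285, chromosome 1, 8004404 to 8026308) encodes MIG6, which binds the kinase domains of the receptors and blocks them. It had 51.6 and 54.7 CPM in minus Dox and 62.7 and 66.2 CPM in plus Dox. The treated libraries lay a little above the untreated ones, with no overlap. It rose 1.21-fold (log2 fold change 0.28, SE 0.06, edgeR adjusted p = 7.99e-05), and 69.0% of tested genes had a lower log2 fold change.

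Between genes, levels were set side by side as CPM per kb of exon annotated in GENCODE 29, which understates genes expressed from short isoforms. In minus Dox the order was NRG1 (52.8), EGFR (50.0), ERBB2 (14.8), ERRFI1 (12.7), AREG (8.87), EREG (6.50), TGFA (4.42), HBEGF (2.22), BTC (0.886) and ERBB3 (0.539). No neighbours in that order overlapped in their libraries. In plus Dox EGFR stood first at 24.0, followed by ERRFI1 at 15.4, ERBB2 at 14.8 and NRG1 at 12.1 CPM per kb. TGFA at 4.83, HBEGF at 4.35 and AREG at 4.29 came next, and the libraries of AREG overlapped those of both HBEGF and TGFA. EREG at 1.63, BTC at 1.29 and ERBB3 at 0.749 were the lowest.

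The 6 ligand genes together had 75.8 and 75.5 CPM per kb in minus Dox and 28.2 and 28.9 CPM per kb in plus Dox. NRG1 held 70.2% and 69.3% of that sum without doxycycline, but 42.9% and 42.1% with it. HBEGF went from 2.83% and 3.03% to 15.0% and 15.5%, and TGFA from 5.84% in both untreated libraries to 17.4% and 16.5%. AREG held 11.3% and 12.1% without and 13.5% and 16.6% with doxycycline, although its own level fell. Without NRG1 the sum of the other 5 ligands was 22.6 and 23.2 CPM per kb without doxycycline and 16.1 and 16.7 CPM per kb with it. These sums and shares describe the libraries and were not tested. They leave out EGF, NRG2 and NRG4, which are not among the 10 genes. Per kb those had means of 0.5105, 1.494 and 0.5028 CPM in minus Dox and 1.433, 1.765 and 2.103 CPM in plus Dox.

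**Figure D3:**
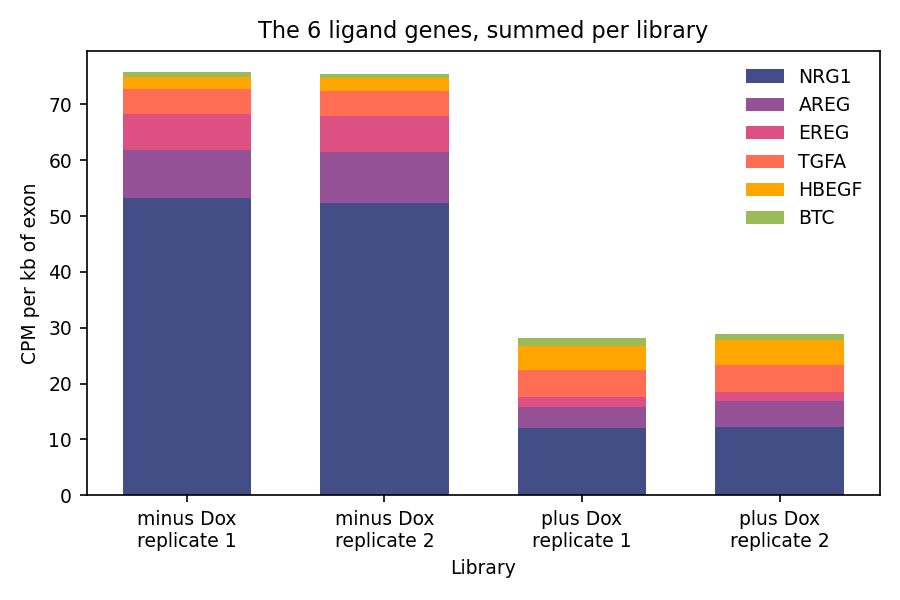
Stacked bars of CPM per kb of exon for the 6 ligand genes in each library, starting at 0. The bars without doxycycline reach 75.8 and 75.5 and those with it 28.2 and 28.9, with most of the difference in the NRG1 segment.

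EREG, AREG and BTC lie in an interval of 486 kb on chromosome 4 that also holds EPGN, another EGFR ligand gene. This interval, from EPGN to BTC, has 6 annotated genes, of which EREG, AREG and BTC were tested. EREG and AREG, on the plus strand with an unnamed antisense gene between them, both fell, while BTC on the minus strand rose in the reported fit. EPGN had at most 6 counts in any library. The nearest tested gene before the interval, the folate enzyme gene MTHFD2L, rose by 0.63 on the log2 scale (edgeR adjusted p = 3.15e-05), and PARM1, the nearest after it, did not pass (0.41, edgeR adjusted p = 0.435). Both were named for their position. The fall was not found in every gene of the region.

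The windows before the starts of the 3 tested ligand genes of this interval are shown, without annotated exon bases, because neighbours moved in different directions. They cover chr4:74364895-74365142 (EREG, plus strand), chr4:74444886-74445133 (AREG, plus strand) and chr4:74794687-74794773 (BTC, minus strand). Capitals mark the cyclic AMP response element in AREG, 65 to 58 bases before its start, and the forkhead site in BTC, 231 to 225 bases before its start. EREG held none of the 3 motifs:
EREG: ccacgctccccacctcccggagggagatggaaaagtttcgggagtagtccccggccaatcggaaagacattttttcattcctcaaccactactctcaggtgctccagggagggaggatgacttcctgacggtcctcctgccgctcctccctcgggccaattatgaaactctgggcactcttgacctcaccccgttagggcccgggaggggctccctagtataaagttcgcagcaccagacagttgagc
AREG: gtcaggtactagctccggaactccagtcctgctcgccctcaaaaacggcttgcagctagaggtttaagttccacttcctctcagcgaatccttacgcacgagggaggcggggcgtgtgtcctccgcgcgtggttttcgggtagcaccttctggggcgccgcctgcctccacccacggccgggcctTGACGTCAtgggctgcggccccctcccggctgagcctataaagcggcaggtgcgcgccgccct
BTC: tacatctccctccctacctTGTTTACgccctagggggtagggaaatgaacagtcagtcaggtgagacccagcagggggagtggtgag
Of the 10 windows of the members, 2 held an AP-1 site (the inner EGFR start and ERBB2), 1 a cyclic AMP response element and 1 a forkhead site. EGFR and AREG fell, ERBB2 did not pass and BTC rose. None of the 3 motifs was held by EREG, which fell, by HBEGF and ERRFI1, which rose, or by TGFA, which did not pass.

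Among the other ERBB receptor and ligand genes, 3 of 6 were tested, 2 rose and 1 did not pass. Over all tested genes 28.4% were called higher and 28.4% lower. NRG4, a ligand of ERBB4, rose from 2.53 to 10.6 CPM (log2 fold change 2.07, SE 0.15), though 38.1% of its exon bases lie opposite FBXO22, so its reads are uncertain. The gene of EGF itself rose from 3.13 to 8.78 CPM (log2 fold change 1.49, SE 0.15). NRG2 had 6.75 CPM in minus Dox and 7.98 CPM in plus Dox, a log2 fold change of 0.24 that did not pass (edgeR adjusted p = 0.118). It passed as higher without plus Dox replicate 1 (edgeR adjusted p = 0.0442) and with library size only (edgeR adjusted p = 0.00267). NRG3 was listed at 0 in every library.

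Genes of ligand release were lower in 9 of 11 tested members and higher in 0, with ADAM10 and ADAM8 not past and a median of −0.34 on the log2 scale. Over all tested genes 28.4% were called lower and 28.4% higher. ADAM19, a protease that can cut neuregulins, fell from 106 to 28.7 CPM (log2 fold change −1.88), and ADAM12, which can release HBEGF, from 6.55 to 0.626 CPM (−3.38). ADAM9 fell from 553 to 406 CPM. Of the genes below that were picked with their values known, ADAM17, the main sheddase of the EGFR ligands, fell by 0.34, and its trafficking partner RHBDF2 by 0.62 on the log2 scale. ADAM10, the other main sheddase, had 281 and 286 CPM on average. With library size only 5 of the 11 fell and 1 rose, where 2925 of all 18046 tested genes were lower and 7865 higher.

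Genes of receptor turnover and inhibition moved both ways, with 10 of 20 tested members higher, 6 lower and 4 not past, and a median of 0.18, where 28.4% of all tested genes were called in each direction. SH3KBP1, an adaptor that links the ubiquitin ligase CBL to endocytosis of EGFR, fell from 336 to 99.5 CPM (log2 fold change −1.76). UBASH3B, a phosphatase that opposes CBL, fell from 141 to 77.7 CPM, and SOCS4, which promotes loss of EGFR, rose from 35.7 to 69.7 CPM. Picked with their values known, CBL had a log2 fold change of 0.44 and LRIG1, a membrane inhibitor of the receptors, of 0.78, and both rose. The receptor-type phosphatases PTPRK (−1.03) and PTPRJ (−0.60), also picked with their values known, fell.

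Adaptors and kinases downstream were higher in 14 of 22 tested members and lower in 4, with 4 not past and a median of 0.23. PIK3R2, among those not past, had 2 to 12 counts per library and shares 87.2% of its exon bases with another gene. PIK3CA, among those higher, has 35.8% of its exon bases opposite another gene. With library size only 18 rose and 2 fell, where 7865 of all 18046 tested genes were higher and 2925 lower. With the trend on GC content, length and abundance removed 16 rose and 2 fell, where 5302 of 17974 genes were higher and 4489 lower. The docking protein GAB1 rose from 8.98 to 19.4 CPM. The kinase gene MAP2K2 fell from 242 to 152 CPM, and SRC, also a kinase, went down from 318 to 233 CPM. Of ERK feedback and early response genes 7 of 15 rose, 5 fell and 3 did not pass, with a median of 0.09. MYC had a log2 fold change of −1.56 and FOSL1, a FOS relative, of −1.25. The ERK phosphatase DUSP6 rose (log2 fold change 1.26), with 40.5% of its exon bases opposite another gene. EGR1 (2.40) and SPRY4 (0.82), picked with their values known, rose as well. SPRY2 (−0.55), DUSP4 (−0.32) and PHLDA1 (−0.42), the other members that fell, went the opposite way. Over all tested genes the median was 0.00, with 28.4% called higher and 28.4% lower.

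**Figure D4:**
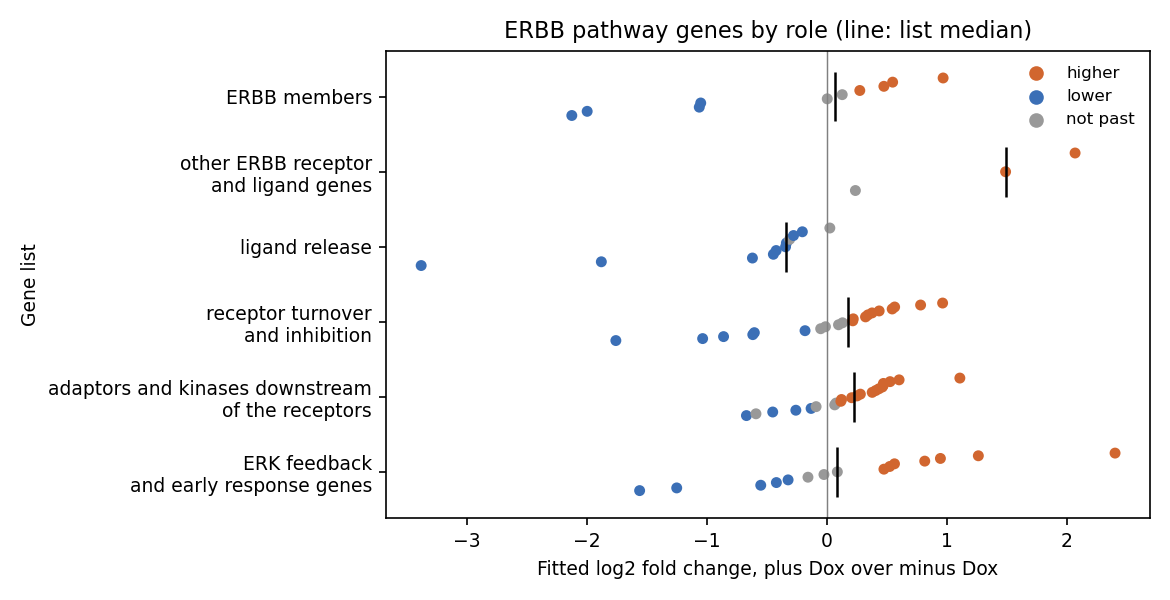
Fitted log2 fold change of every tested gene in the member list and the 5 pathway lists (orange, higher; blue, lower; grey, not past), with a line at each list's median. Ligand release genes lie at or below 0.03, while the other lists hold genes on both sides or, for the other receptor and ligand genes, from 0.24 to 2.07.

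The compared genes most like EGFR over the 4 libraries, by Euclidean distance between centred log2 CPM, were TSPAN15 (distance 0.0138) and SMAD3 (0.0259). Only tested genes with a symbol, at least 5 CPM in the higher group and no place in any gene list used here were compared. TSPAN15, a tetraspanin partner of ADAM10, went from 59.8 to 28.4 CPM and SMAD3, a transducer of TGF-beta signals, from 444 to 210 CPM. For AREG they were LINC02615 (0.0791), from 6.23 to 2.89 CPM, and PYCR3 (0.0963), a proline synthesis gene, from 7.10 to 3.31 CPM. With 4 libraries in 2 groups this measure mostly ranks genes by the size of their fold change.

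**Figure D5:**
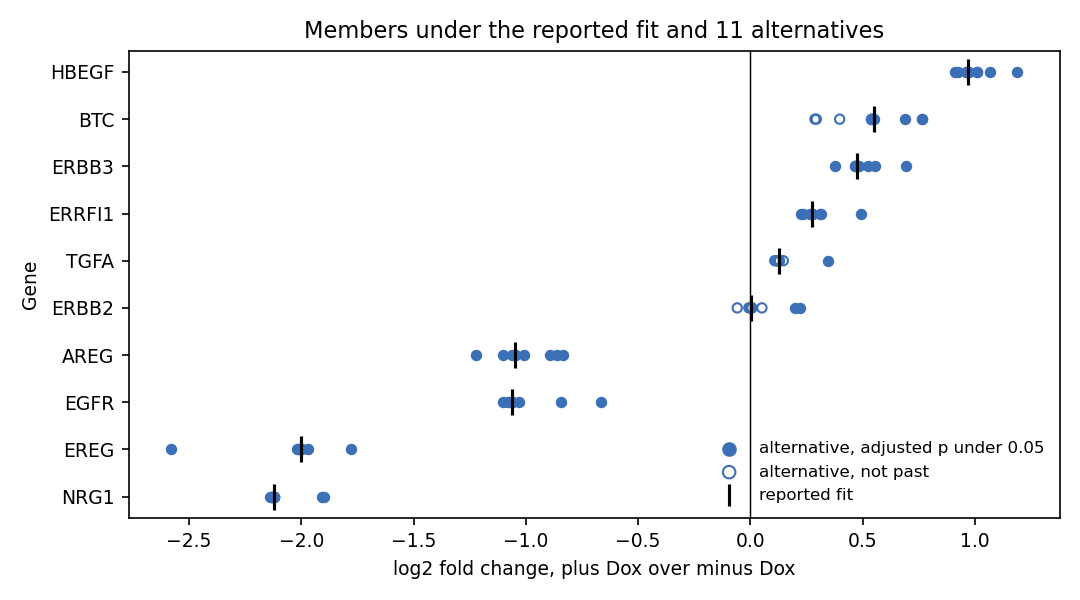
Log2 fold change (plus Dox over minus Dox) of each member under the reported fit (black line) and 11 alternatives (filled circles, adjusted p under 0.05; open circles, not past). NRG1, EREG, EGFR, AREG, HBEGF and ERRFI1 are filled in all 11, while BTC is open in 4 and ERBB3 in 1.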

How the data were processed

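Each deposited file holds raw counts per Ensembl gene for 1 library, with no normalization, as the file headers and values show. Per the submitters' processing notes, which give no role or order, the tools were featureCounts 2.0.3, STAR 2.7.10b, cutadapt 4.0, DESeq2 2.11.40.7 and DRAGEN, with build hg38. For the counting, the strand setting and annotation release were not given in the sources used here, so reads of overlapping or antisense genes cannot be told apart.

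From these counts, R 4.3.3 and edgeR 4.0.16 were used. filterByExpr at its defaults kept 18046 of 58051 genes, libraries were scaled by TMM (0.926 to 1.079), and the quasi-likelihood test of group was adjusted over all tested genes by Benjamini-Hochberg at 0.05. The pipeline was tested on simulated data. It recovered 40% of changes of 1.2-fold, 66% of 1.5-fold, 86% of 2-fold and 100% of 4-fold. It called 6 of 17438 unchanged genes. Symbols, positions and exon lengths came from GENCODE 29 and a symbol table (41445 genes with a symbol, 105 of 105 listed names matched), and promoter letters from RefSeq (GRCh38.p14). A count of 0 allows 3 counts, 0.0800 to 0.0895 CPM, for counting error only. Alternatives were other scalings, no filter, DESeq2 1.42.0, leaving out each library, a replicate block, and per-library smooth trends on GC content, exon length and abundance removed (mgcv 1.9.3).

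The members and gene lists were chosen with earlier results of these data known. Named genes are the 10 members and the 3 tested members of each pathway list with the lowest adjusted p. The 2 genes most like EGFR and AREG are named too. They were sought among tested genes with a symbol, in no list and with at least 5 CPM in the higher group. Others are said to be named later.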

Additional observations from a re-analysis of the deposited data

How the results depend on the processing

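All 11 alternatives kept the direction of NRG1, EREG, EGFR, AREG, HBEGF and ERRFI1 and kept them past the threshold, with log2 fold changes of −2.14 to −1.90, −2.58 to −1.78, −1.10 to −0.67, −1.22 to −0.83, 0.91 to 1.19 and 0.23 to 0.49. ERBB3 passed in 10 and BTC in 7 of them. ERBB2 turned below 0 with no filter (−0.0064) and without minus Dox replicate 1 (−0.0582, where leaving out any other library gave at most 0.0517), and passed in neither. DESeq2 called 2 members higher instead of 4, with ERBB3 and BTC not past, and 3926 of 32175 unfiltered genes higher. With library size only 7865 genes were higher and 2925 lower (72.9% higher, against 50.0% as reported), and the median over tested genes was 0.22, against 0.00. There 6 members rose and 4 fell, 5 ligand release genes fell and 1 rose, and 2 downstream genes fell. After removal of the GC, length and abundance trend 2 downstream genes fell as well, with 5302 of 17974 genes higher and 4489 lower. Leaving out 1 library gave 8564 to 10122 called genes and 7 or 8 called members, where a lone library is assumed to vary like the other group. With a replicate block 10414 genes and 8 members were called, against 10265 and 8 without it. Libraries with the same number did not deviate together (Pearson's r 0.0023 across genes, which are not independent replicates). That value cannot show whether they share a culture, a day or a batch. The replicate numbers are those of the sample titles, and the column headers number the libraries differently. The causes of these shifts were not tested. Summed over the 4 libraries, BTC and ERBB3 had the fewest counts of the members, with 84 to 237 per library.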
